A study of Mus musculus with 10 samples.

Results

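Wild-type mouse embryos at embryonic day 9.0 (E9.0) were compared with embryos at embryonic day 8.0 (E8.0) across all genes. The stage of each library was taken from its sample title. The comparison rests on 4 of the 10 libraries of the series, 2 at each stage. The other libraries come from embryonic stem cells and from embryoid bodies (EBs, aggregates of differentiating stem cells) with or without Strap, a gene whose product takes part in RNA splicing. All 4 embryo libraries were made from whole C57BL/6 embryos of wild-type genotype with no treatment, and each was a pool of embryos, with more embryos in an E8.0 pool than in an E9.0 pool. The E8.0 columns carry a later stage name in the table header than in the sample labels, and the labels were used here. The header names also begin differently for the stages, so that stage and any separate preparation of the libraries cannot be told apart.

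Between these stages the mouse embryo turns from a gastrulating plate with a few somites into a folded embryo with a beating heart, closing neural tube, pharyngeal arches and limb buds. The trunk is extended by axial progenitors of the tailbud, which are kept by T-box and Cdx factors and by Wnt and FGF signals. The visceral endoderm of the yolk sac absorbs and exports nutrients for the embryo, and the yolk sac mesoderm makes the primitive red cells that enter the circulation once the heart beats.

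RNA was depleted of ribosomal RNA and sequenced, and transcript levels were deposited as FPKM (fragments per kilobase of transcript, scaled to the mapped fragments of each library), with no counts, so that the depth behind each value is unknown. In every embryo library 12881 to 12915 rows of the table reached 1 FPKM. The median row differed by 0.1 on the log2 scale between the E8.0 pools and by 0.11 between the E9.0 pools. Mitochondrial transcripts took 0.6% and 0.47% of all FPKM at E8.0 and 2.38% and 0.26% at E9.0, and rows that hold ribosomal RNA took 0.03% and 0.26% against 1.98% and 1.22%. The labels and the study's methods name different kits for removing ribosomal RNA. All 7 markers of the embryo proper (Tnnt2, Nkx2-5, Meox1, Sox2, Pax6, Hoxb9 and Cdh5) reached 1 FPKM in all 4 libraries, and their summed level was 168.2 and 167.6 FPKM at E8.0 and 146.8 and 153.1 FPKM at E9.0. Strap itself was at 86.8 and 93.1 FPKM at E8.0 and at 98.5 and 82.8 FPKM at E9.0, so that the stages overlapped (log2 fold change 0.01).

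Among gene lists with at least 5 genes tested, the highest shares that rose at E9.0 were in erythroid cells (9 of 25) and mesenchyme and limb bud (6 of 17), and the highest shares that fell were in visceral endoderm and yolk sac (21 of 23) and tailbud and presomitic mesoderm (7 of 20). Of 15160 rows tested, 182 rose (1.2%) and 170 fell (1.12%) from E8.0 to E9.0 at an adjusted p under 0.05, together 2.32%. The test was limma on log2(FPKM + 1) in a model of 8 libraries, in which the embryos share a single estimate of spread with the EBs. Here "rose" and "fell" refer to this model, and fold changes are E9.0 minus E8.0 on that log2 scale, on which changes of low genes are understated. The median change was 1.17 among rows that rose, -1.46 among rows that fell and 0.0 over all rows tested. Protein-coding genes made up 160 of the rows that rose and 152 of those that fell. In none of these rows did the stages overlap, against 66.2% of all rows without overlap in either direction.

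The number of calls depended on which libraries set the spread. With only the 4 embryo libraries in the model, 1576 rows were higher (10.4%) and 1290 lower (8.51%) at E9.0, together 18.9%, and these held all 182 and all 170 of the rows above. Members that passed only there are given below as passing in the embryo-only model. With any of the 4 embryo libraries left out, the 8-library model gave 8 to 11 rows higher and 9 to 17 lower, of which 7 to 11 and 9 to 17 were among the rows above. Embryos were pooled and nothing in the labels ties a pool to a litter, so p-values of the embryo-only model measure the spread between these pools. Those of the 8-library model also take in the spread between EB libraries. There the median row differed by 0.25 on the log2 scale with Strap and by 0.27 without it, more than between embryo pools of a stage.

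**Figure D1:**
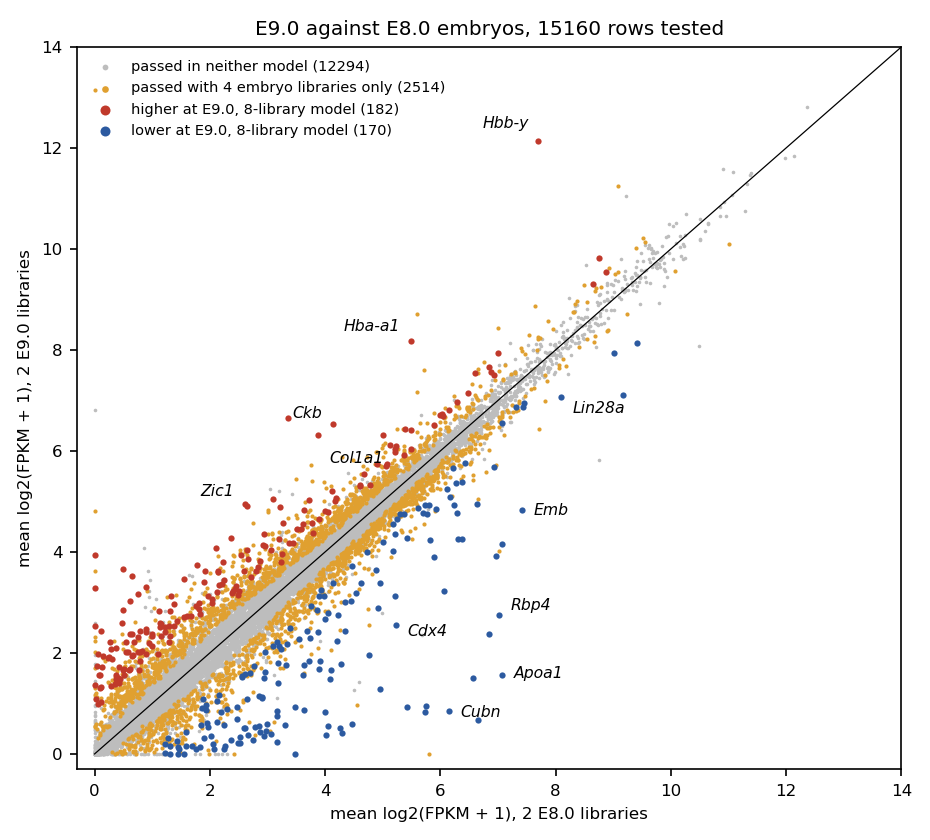
Mean log2(FPKM + 1) of the 2 E9.0 libraries (vertical) against that of the 2 E8.0 libraries (horizontal) for all 15160 rows tested, with a line of equality. Red points are the 182 rows that rose, blue points the 170 rows that fell, and orange points rows that passed only with the 4 embryo libraries. The median change was -1.46 among rows that fell and 1.17 among rows that rose. Of the labelled rows, Apoa1 and Cubn lie farther from the line than Hbb-y, and Rbp4 less far.

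**Figure D2:**
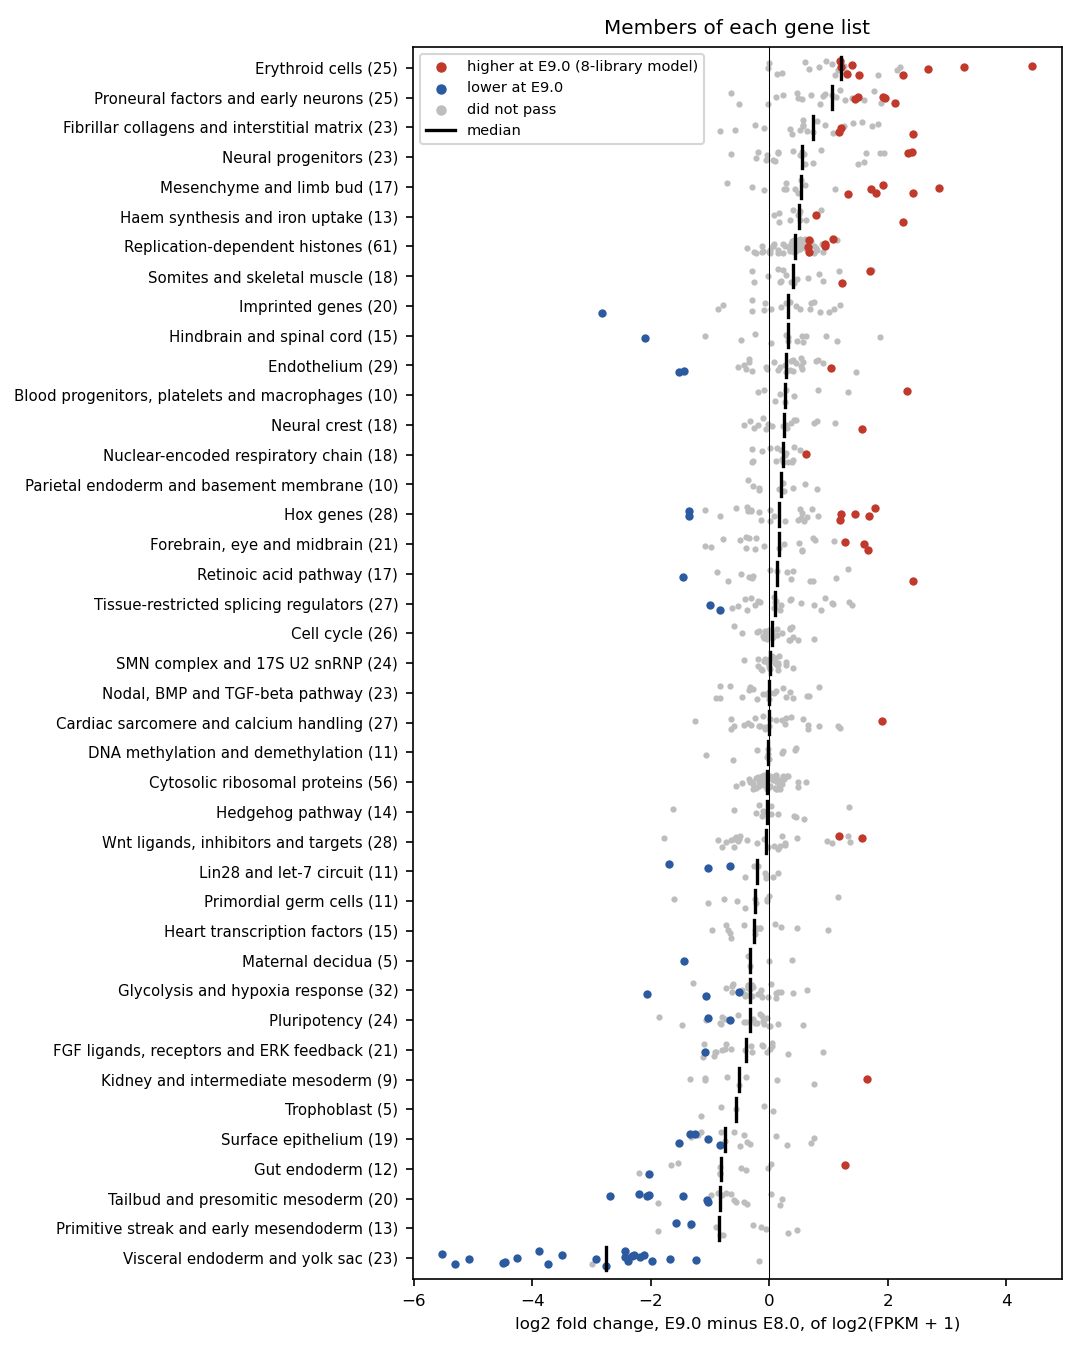
Log2 fold change, E9.0 minus E8.0, of each tested member of the gene lists with at least 5 tested members, ordered by list median (black bar), with the number tested in brackets. Red and blue points rose or fell in the 8-library model and grey points did not pass. The visceral endoderm and yolk sac list sits lowest (median -2.76) and the erythroid list highest (median 1.21).

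The erythroid genes held the steepest rise. Hbb-y (chr7:103851749-103853216, minus strand, GRCm38), the embryonic beta-like globin, was at 115 and 369 FPKM in the E8.0 pools and at 5808 and 3489 FPKM in the E9.0 pools. The lowest E9.0 pool lay far above the highest E8.0 pool, and the log2 fold change was 4.44 ± 0.53 (SE; limma adjusted p = 0.0151). The adult-type alpha globins rose too, Hba-a1 from 32.3 and 60.3 to 307 and 273 FPKM (log2 fold change 2.69) and Hba-a2 from 6.96 and 12.3 to 110 and 90 FPKM (log2 fold change 3.28). With an offset of 3 bases, 297 of 297 bases of the promoter windows of these 2 copies matched. Their transcript sequences were not compared, so how surely FPKM could be split between them was not tested. Alas2, which encodes the enzyme that starts haem synthesis in red cells, went from 3.54 and 7.62 to 37 and 22.5 FPKM (log2 fold change 2.26).

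The sequences before the start sites of 3 of these genes are shown because the genes moved together and carry letters that red-cell factors are known to read. Each is the 250 bases before the RefSeq start in the GRCm38.p6 build, with capitals at CACCC (bound by Krüppel-like factors), CCAAT and GATAA (bound by GATA factors) on either strand. They lie at chr7:103853208-103853457 on the minus strand for Hbb-y, chr11:32283422-32283671 on the plus strand for Hba-a1 and chrX:150547167-150547416 on the plus strand for Alas2.
Hbb-y: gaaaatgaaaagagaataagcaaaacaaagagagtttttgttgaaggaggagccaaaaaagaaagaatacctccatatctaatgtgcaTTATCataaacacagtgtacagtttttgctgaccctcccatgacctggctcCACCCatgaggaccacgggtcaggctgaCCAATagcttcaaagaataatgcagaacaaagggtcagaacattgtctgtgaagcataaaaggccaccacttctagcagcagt
Hba-a1: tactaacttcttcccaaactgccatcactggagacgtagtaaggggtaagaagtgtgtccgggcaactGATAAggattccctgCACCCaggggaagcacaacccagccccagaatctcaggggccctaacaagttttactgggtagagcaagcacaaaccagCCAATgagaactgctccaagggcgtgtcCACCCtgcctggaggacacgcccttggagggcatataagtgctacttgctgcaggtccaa
Alas2: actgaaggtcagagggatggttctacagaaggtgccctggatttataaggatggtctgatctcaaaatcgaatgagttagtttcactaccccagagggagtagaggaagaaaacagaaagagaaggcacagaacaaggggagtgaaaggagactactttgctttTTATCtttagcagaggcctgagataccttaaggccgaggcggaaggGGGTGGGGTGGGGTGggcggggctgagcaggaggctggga
In Hbb-y the matches begin at -162 (GATAA, other strand), -111 (CACCC) and -83 (CCAAT) relative to the start. In Hba-a1 they begin at -182 (GATAA), -167 and -60 (CACCC) and -88 (CCAAT), and Alas2 has GATAA at -86 and CACCC at -40, -35 and -30, all on the other strand, and no CCAAT. None of the marked matches overlaps another. RefSeq windows from 250 bases before to 50 bases after the start were held for 18 of the 25 erythroid genes tested. CACCC was present in 15 of the 18 (83.3%) against 56.7% of 27025 windows of all genes, GATAA in 14 (77.8%) against 25.8%, and CCAAT in 9 (50%) against 37.9%. The longer forms AGATAA and CCACACCC were in 7 (38.9%) against 11.4% and in 0 against 3.57%. These are matches of letters only, and the matching windows of Hba-a1 and Hba-a2 were counted separately.

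Of the 25 erythroid genes tested, 9 rose and 0 fell in the 8-library model (13 and 0 in the embryo-only model), with a median change of 1.21. Besides the genes above these were the membrane skeleton genes Epb42 and Ank1, the Rh antigen family genes Rhag and Rhd, and Hemgn. Rhag went from 0.436 and 0.804 to 4.63 and 2.80 FPKM (log2 fold change 1.52). The other embryonic globins were abundant at both stages: Hbb-bh1 was at 395 and 892 FPKM at E8.0 and 2708 and 1641 FPKM at E9.0 (limma adjusted p = 0.15). Hba-x was at 365 and 794 against 2700 and 2157 FPKM and passed in the embryo-only model. For both genes the stages did not overlap. Together 5 globin genes made up 0.175% and 0.387% of all FPKM at E8.0 and 1.98% and 1.31% at E9.0. Of the regulators of the lineage, Gata1, Klf1 and Tal1 passed in neither model. Gata1 was at 1.76 and 2.68 against 5.52 and 3.97 FPKM (limma adjusted p = 0.101), Klf1 at 1.52 and 3.21 against 7.67 and 6.12 FPKM (limma adjusted p = 0.0637), and Tal1 overlapped at 6.31 and 7.02 against 7.63 and 5.81 FPKM. With a pseudocount of 0.1 in place of 1, 3 erythroid genes passed as higher. Blood genes also varied between pools of a stage. The second E8.0 pool was above the first in 23 of 25 erythroid genes (median 0.39) and the second E9.0 pool below the first in 24 of 25 (median -0.39).

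Among genes of haem synthesis and iron uptake, 2 of 13 rose, Alas2 and Ppox (9.31 and 9.46 to 16.9 and 17.1 FPKM), and 0 fell. Outside the lists, the blood group genes Gypc, Kel and Ermap rose, with log2 fold changes of 1.45, 1.26 and 1.43, and so did Pklr, the pyruvate kinase of red cells and liver (2.03 and 2.85 to 14.6 and 10.5 FPKM). Pf4, a platelet chemokine, was at 0.163 FPKM in the first E8.0 pool and listed at 0 in the second, against 6.15 and 3.10 FPKM at E9.0, and was the single gene that rose of 10 tested for blood progenitors, platelets and macrophages. Runx1, which is needed for definitive blood formation, overlapped (0.889 and 1.09 against 1.23 and 1.01 FPKM). Hbb-bt, an adult beta globin, rose from 0.197 and 0.377 to 1.56 and 1.68 FPKM, while Hbb-bs, its adult partner gene, overlapped. Of 8 markers of adult maternal blood, 6 were under 1 FPKM in all 4 libraries.

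Of 29 endothelial genes tested, 1 rose and 2 fell, with 11 higher and 4 lower in the embryo-only model. Etv2, which specifies blood and endothelial precursors, fell from 4.07 and 5.01 to 0.775 and 1.07 FPKM (log2 fold change -1.53 ± 0.20, limma adjusted p = 0.0188). Lyve1, a hyaluronan receptor of yolk sac and lymphatic vessels and of macrophages, fell from 2.08 and 4.01 to 0.352 and 0.570 FPKM. Robo4, a receptor of the vessel wall, rose from 0.383 and 0.472 to 1.93 and 1.94 FPKM. Of the genes that most endothelial cells express, the cadherin Cdh5 was at 17.7 and 17.7 against 19.3 and 18.2 FPKM and passed in neither model. The VEGF receptor Kdr, at 21.1 and 21 against 17.3 and 16.8 FPKM, passed as lower in the embryo-only model, and the junction gene Cldn5, at 4.54 and 4.89 against 15 and 14.7 FPKM, and the sialomucin Emcn, at 6.08 and 6.51 against 12.9 and 12.3 FPKM, passed there as higher.

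**Figure D3:**
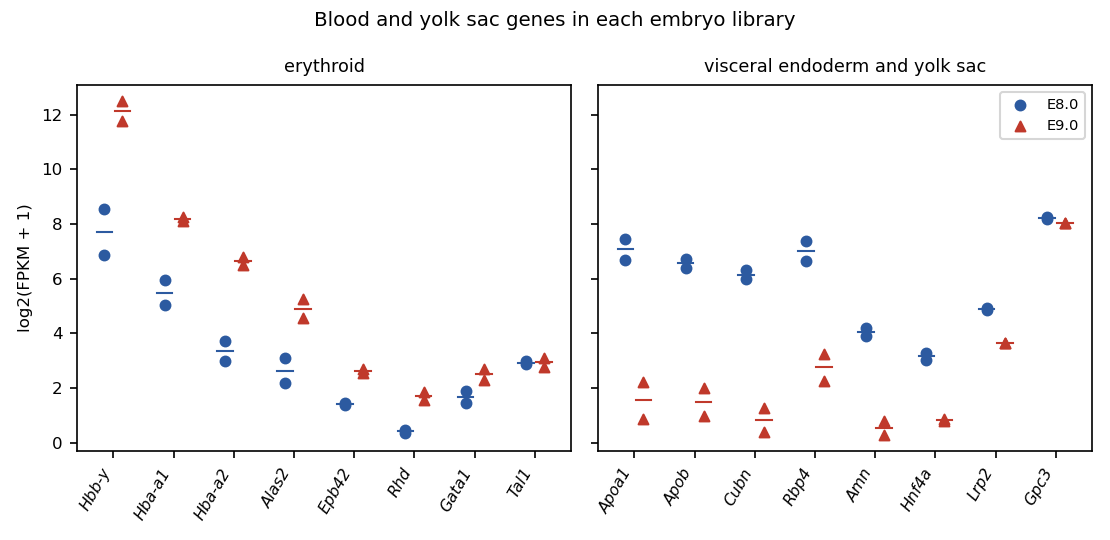
Log2(FPKM + 1) of 8 erythroid genes (left) and 8 visceral endoderm and yolk sac genes (right) in each library, with E8.0 pools as blue circles, E9.0 pools as red triangles and the mean of each stage as a bar. Hbb-y lies at 5808 and 3489 FPKM in the E9.0 pools, Tal1 overlaps, and Apoa1 and Cubn lie at or below 3.70 FPKM at E9.0 while Gpc3 is nearly level.

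The steepest fall was in genes of visceral endoderm and yolk sac, of which 21 of 23 tested fell and 0 rose (22 and 0 in the embryo-only model), with a median change of -2.76. Apoa1 (chr9:46228580-46230466, plus strand), the main protein of high-density lipoprotein, went from 103 and 174 FPKM to 3.70 and 0.844 FPKM, a log2 fold change of -5.52 ± 0.54 (limma adjusted p = 0.00781). Apob, which builds the lipoproteins that yolk sac endoderm secretes, went from 83.8 and 104 to 3.02 and 0.985 FPKM (log2 fold change -5.07). In each case the highest E9.0 pool was far below the lowest E8.0 pool. The microsomal transfer gene Mttp, which loads lipid onto Apob, fell from 16.2 and 18.9 to 4.29 and 3.17 FPKM, and Apom and Apoa4 fell with log2 fold changes of -4.49 and -3.74.

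The uptake receptors fell as well. Cubn, the receptor cubilin, was at 62.3 and 78.1 FPKM at E8.0 and at 1.44 and 0.322 FPKM at E9.0 (log2 fold change -5.30 ± 0.94, limma adjusted p = 0.0436). Its partner Amn went from 13.8 and 17.5 to 0.739 and 0.222 FPKM. Lrp2, which is also made in neuroepithelium, fell less, from 29.2 and 28 to 11.6 and 11.5 FPKM (log2 fold change -1.24). Rbp4, the retinol carrier, fell from 99.7 and 166 to 8.46 and 3.82 FPKM, and Hnf4a, a transcription factor of this endoderm, from 7.22 and 8.73 to 0.744 and 0.842 FPKM. Of the list, Afp and Gpc3 did not pass. Afp, alpha-fetoprotein, was at 83.9 and 196 against 20.5 and 11.4 FPKM (limma adjusted p = 0.102) and passed in the embryo-only model, and Gpc3, a glypican that many embryonic tissues make, was at 288 and 302 against 259 and 262 FPKM.

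The 15 single-gene rows that fell furthest also held the following genes, picked by their fall. Spink1, a trypsin inhibitor, went from 41 and 67 to 0.731 and 0.810 FPKM (log2 fold change -4.92). The calcium-binding S100g went from 33.8 and 82 to 2.68 FPKM in the first E9.0 pool and was listed at 0 in the second. The sulphate transporter Slc13a4, which is in the yolk sac list, the glucose transporter Slc2a2 and the lysosomal protease Ctsh fell with log2 fold changes of -3.88, -3.87 and -3.68. From outside the lists, Car4, a membrane-bound carbonic anhydrase, fell from 118 and 132 to 13.6 and 14.5 FPKM, and the folate receptor Folr1 from 15.9 and 21.1 to 2.41 and 2.46 FPKM.

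Whether the yolk sac was left on the embryos is not given in the sources used here. Less yolk sac in the E9.0 pools and less of these transcripts per cell cannot be told apart. The second E8.0 pool was above the first in 22 of the 23 genes (median 0.37) and the second E9.0 pool below the first in 19 (median -0.34). Markers of other tissues outside the embryo proper were summed in the same way. The parietal endoderm markers summed to 157.3 and 139.0 FPKM at E8.0 and 152.6 and 128.5 FPKM at E9.0. Most of this was the basement membrane gene Col4a1 (111 and 95.4 against 104 and 80.9 FPKM), and Sox7 was also counted as an endothelial gene. Of 10 parietal endoderm and basement membrane genes 0 passed (3 higher and 2 lower in the embryo-only model). The trophoblast markers summed to 7.04 and 7.87 against 4.01 and 3.25 FPKM, with Tpbpa, Ctsq and Synb listed at 0 throughout. Plac1, the highest of them, was at 3.84 and 3.87 against 2.31 and 2.25 FPKM. Of 5 trophoblast genes tested 0 passed (0 higher and 2 lower in the embryo-only model). The decidual markers summed to 37.4 and 40.7 against 43.3 and 37.9 FPKM, mostly Hsd11b2 and Cryab, and 5 of 13 (Gzmd, Gzme, Gzmf, Gzmg and Prf1) were listed at 0 throughout, but Prl8a2, a decidual prolactin, was at 1.6 and 1.85 FPKM at E8.0 and listed at 0 in both E9.0 pools. Promoter windows of 21 of the 23 yolk sac genes held the letters of HNF1 (GTTAAT) in 3 (14.3%) against 7.2% of all windows, those of HNF4 (CAAAGT) in 4 (19%) against 14.3% and GATAA in 9 (42.9%) against 25.8%.

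Of 20 genes of the tailbud and presomitic mesoderm tested, 7 fell and 0 rose (13 and 0 in the embryo-only model), with a median change of -0.83. Cdx4, a caudal homeobox factor that maintains axial progenitors, went from 39.8 and 33.8 FPKM to 5.36 and 4.34 FPKM (log2 fold change -2.69 ± 0.17, limma adjusted p = 0.00299). Its relatives Cdx2 (30.5 and 28 to 6.98 and 5.82 FPKM) and Cdx1 (19.8 and 9.58 to 2.00 and 2.47 FPKM) fell with it. As in every row that passed, the stages did not overlap for the 3 Cdx genes. Nkx1-2, a marker of neuromesodermal progenitors, fell from 17.7 and 11.2 to 2.73 and 2.46 FPKM, and Cyp26a1, which clears retinoic acid from the tail, from 18.4 and 16.8 to 6.53 and 5.09 FPKM. Tbx6, which directs progenitors to mesoderm, and the segmentation clock gene Hes7 fell with log2 fold changes of -1.04 and -1.05. T (Brachyury) was at 29.6 and 22.4 against 6.80 and 5.82 FPKM and passed in the embryo-only model (limma adjusted p = 0.0907 with 8 libraries). Fgf8 and Wnt3a, signals of the tailbud, passed in neither model, at 17.7 and 13.8 against 11.4 and 8.12 FPKM and at 5.76 and 4.63 against 2.42 and 3.89 FPKM. The Notch pathway genes Dll1 and Lfng, which take part in segmentation, were at 20.6 and 20.1 against 22.1 and 24.5 FPKM and at 19.5 and 18.9 against 22.3 and 22.6 FPKM and passed in neither model. With a pseudocount of 0.1, 4 members of this list passed as lower.

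A few genes of earlier states fell as well. Of 13 streak and mesendoderm genes 2 fell: Mixl1 (3.27 and 2.24 to 0.381 and 0.134 FPKM) and Evx1 (7.17 and 6.33 to 2.64 and 1.63 FPKM). Of 24 pluripotency genes 2 fell and 0 rose, with 11 lower and 1 higher in the embryo-only model. They were Lin28a and Trim71, which are RNA-binding partners of the let-7 timing circuit and were counted in the list of that circuit as well. Other pluripotency genes, such as Nanog, Prdm14, Dppa2 and Gdf3, were under 1 FPKM in all 4 embryo libraries and met the filter only through EBs. Lin28a fell from 287 and 262 to 135 and 130 FPKM (log2 fold change -1.04 ± 0.18, limma adjusted p = 0.0401), whereas its paralog Lin28b was at 42.8 and 42.1 against 41.2 and 40.2 FPKM. Nr6a1, a nuclear receptor of trunk development that let-7 targets, fell from 113 and 86.6 to 28.9 and 31.1 FPKM. Pou5f1, which encodes Oct4, was at 6.18 and 1.41 FPKM at E8.0 and 0.200 and 0.103 FPKM at E9.0, and the spread between the E8.0 pools left it short of the threshold in both models (limma adjusted p = 0.148 with 8 libraries). None of 11 primordial germ cell genes passed in the 8-library model, and 1 was higher and 4 lower in the embryo-only model. Dppa3 and Prdm14 of this list also met the filter only through EBs.

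Hox genes, which give the trunk its regional identity and are switched on in the order of their paralog groups, are given here by position. Of 28 tested, 5 rose and 2 fell. In paralog groups 10 to 13, 4 of 6 rose, all 6 were higher without overlap (33.2% of all rows were) and the median change was 1.32. Among the embryo libraries, Hoxa11, Hoxa13, Hoxc11 and Hoxd13 met the filter only through E9.0, so their direction was partly set by it. Hoxc13 was under 1 FPKM in all 4 embryo libraries. Hoxa10 went from 1.00 and 2.16 to 8.17 and 7.23 FPKM. Hoxa11, a gene of the posterior trunk and limb, went from 0.104 and 0.283 to 2.71 and 2.91 FPKM (log2 fold change 1.68 ± 0.16, limma adjusted p = 0.00781). Hoxc11 and Hoxd13 rose by 1.21 and 1.44 on the log2 scale. Of the anterior groups, Hoxb1, which marks a rhombomere, was at 13.6 and 12.9 against 6.61 and 7.46 FPKM (limma adjusted p = 0.0555) and passed as lower in the embryo-only model. The 17 genes of groups 4 to 9 went both ways, with Hoxa6 rising (1.15 and 1.55 to 4.16 and 4.52 FPKM), Hoxc8 falling (18 and 21 to 6.10 and 8.05 FPKM) and a median of 0.27. With a pseudocount of 0.1, 2 Hox genes passed as higher and 0 as lower.

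**Figure D4:**
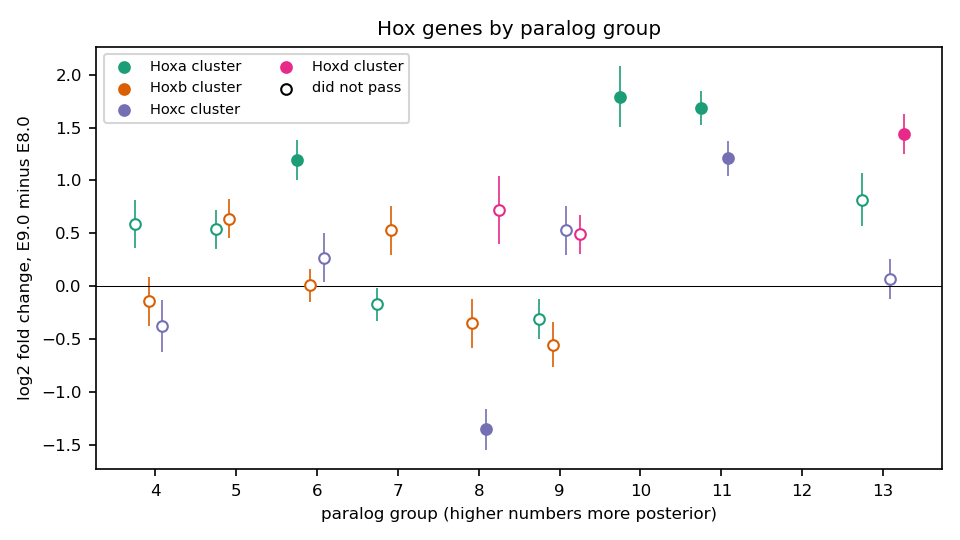
Log2 fold change, E9.0 minus E8.0, of the Hox genes tested in paralog groups 4 to 13, coloured by cluster, with bars of 1 standard error. Filled points passed in the 8-library model. The 6 genes of groups 10 to 13 lie above 0 (median 1.32), while the 17 genes of groups 4 to 9 lie on both sides (median 0.27). Of the former, Hoxa11, Hoxa13, Hoxc11 and Hoxd13 met the filter among embryos only through E9.0. Hoxc13 was under 1 FPKM in every embryo library.

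Of 25 proneural and early neuron genes tested, 5 rose and 0 fell, with 18 higher and 1 lower in the embryo-only model, and the median change was 1.06. Neurog1, a determinant of sensory neurons, went from 0.264 and 0.522 to 5.18 and 4.96 FPKM (log2 fold change 2.13 ± 0.28, limma adjusted p = 0.0178). Neurod4 went from 0.0139 and 0.0823 to 2.65 and 3.31 FPKM and Insm1, a zinc finger factor of newborn neurons, from 0.226 and 0.178 to 3.28 and 4.09 FPKM. Neurog2 and Nhlh2 also rose, by 1.45 and 1.5 on the log2 scale. The stages did not overlap for these 5 genes, as in every row that passed. Among the embryo libraries, Neurog1, Neurod4, Insm1 and Nhlh2 met the filter only through E9.0. The neuronal microtubule gene Dcx went from 0.0659 and 0.0993 to 2.17 and 2.40 FPKM and just missed the threshold (limma adjusted p = 0.0501). Stmn2, a microtubule regulator of neurons, was at 10.9 and 9.00 against 6.17 and 5.77 FPKM and passed as lower in the embryo-only model. With a pseudocount of 0.1, 1 gene of this list passed.

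Genes of neural progenitors were detected at both stages. Sox2 was at 24.2 and 25.5 against 25.6 and 30.2 FPKM and Pax6 overlapped at 15.1 and 16.3 against 13.2 and 17.3 FPKM. Of 23 neural progenitor genes 2 rose and 0 fell, with 12 higher and 1 lower in the embryo-only model. They were the dorsal factor Zic1 (4.93 and 5.33 to 30.3 and 29.8 FPKM, log2 fold change 2.34) and the POU factor Pou3f3 (0.463 and 0.613 to 6.88 and 7.52 FPKM, log2 fold change 2.42). Nes, which encodes the filament protein nestin, was at 11.5 and 14.1 against 40.8 and 42.1 FPKM and the Notch target Hes5 at 9.11 and 11.7 against 42.7 and 41.9 FPKM, both passing in the embryo-only model. Of 21 forebrain, eye and midbrain genes 3 rose. They were Dlx1 (0.208 and 0.131 to 2.75 and 2.68 FPKM), its neighbour Dlx2 (1.45 and 1.74 to 7.19 and 6.57 FPKM), both used in arches and ventral forebrain, and Nkx2-1 (0.477 and 0.678 to 3.10 and 2.56 FPKM), used in ventral forebrain, thyroid and lung. In the hindbrain, Egr2 (Krox20), which marks rhombomeres, fell from 5.38 and 4.82 to 0.392 and 0.448 FPKM (log2 fold change -2.10 ± 0.21, limma adjusted p = 0.00827). Ckb, brain creatine kinase, was among the steepest rises, from 16.7 and 16.6 to 91.7 and 92.8 FPKM, and from outside the lists the tubulin Tubb2b rose from 31 and 30.9 to 76.8 and 79.7 FPKM.

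**Figure D5:**
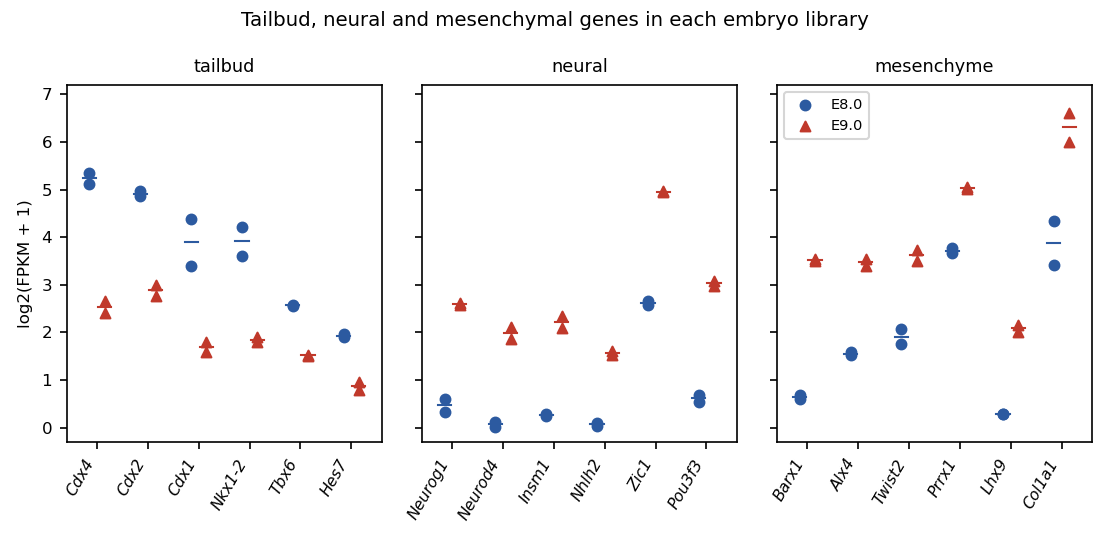
Log2(FPKM + 1) of 6 tailbud, 6 neural and 6 mesenchymal genes in each library, with E8.0 pools as blue circles, E9.0 pools as red triangles and the mean of each stage as a bar. The stages do not overlap for any of the plotted genes, with tailbud genes lower and the others higher at E9.0. Overlap was absent in every row that rose or fell, so its absence is no separate result for plotted genes that passed. Of all rows tested, 66.2% had no overlap in either direction. Of the 20 tailbud genes tested, 17 were lower without overlap. Dll1 and Lfng were higher without overlap and Dll3 overlapped, and these are not plotted.

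Of 17 genes of mesenchyme and limb bud tested, 6 rose and 0 fell (9 and 1 in the embryo-only model), and the median change was 0.54. Barx1, a homeobox gene of the pharyngeal arches and stomach, went from 0.619 and 0.525 to 10.6 and 10.4 FPKM (log2 fold change 2.87 ± 0.15, limma adjusted p = 0.00299). The craniofacial factor Alx4 (1.87 and 1.99 to 10.7 and 9.49 FPKM), the limb and mesenchyme factors Prrx1 (11.6 and 12.6 to 31.1 and 32.5 FPKM) and Twist2 and the limb bud gene Lhx9 rose as well. Tbx5 and Tbx4, the T-box genes of the forelimb and hindlimb, overlapped between stages, at 2.90 and 3.02 against 3.65 and 2.87 FPKM and at 1.53 and 2.33 against 3.06 and 2.10 FPKM. Osr1, a factor of lateral and intermediate mesoderm, was at 10.9 and 8.95 against 5.92 and 5.29 FPKM and passed as lower in the embryo-only model. Sox8 rose among 18 neural crest genes (0.608 and 0.775 to 4.29 and 3.69 FPKM), while Sox10 overlapped.

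Of 23 collagen and matrix genes 3 rose and 0 fell, with 14 higher and 2 lower in the embryo-only model. Col1a1, a chain of type I collagen, went from 9.74 and 19.2 to 96.6 and 63.2 FPKM (log2 fold change 2.43 ± 0.31, limma adjusted p = 0.0178), and Col5a2 and Col9a1 rose by 1.21 and 1.18 on the log2 scale. Col2a1, the cartilage and notochord collagen, was at 40.9 and 39.1 against 86.7 and 84.7 FPKM and passed in the embryo-only model. Fn1, fibronectin, went the other way there, at 238 and 212 against 130 and 122 FPKM.

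Of 18 somite and muscle genes 2 rose. Myog, which drives the final step of muscle differentiation, was at 0.0493 FPKM in the first E8.0 pool and listed at 0 in the second, against 2.46 and 2.2 FPKM at E9.0 (log2 fold change 1.70 ± 0.15, limma adjusted p = 0.00664), and the sclerotome gene Uncx went from 0.576 and 0.891 to 3.03 and 3.03 FPKM. Contractile genes of the heart were abundant at both stages: Myh6, the alpha myosin heavy chain, was at 72.3 and 58.7 against 79.1 and 80.7 FPKM and Actc1, cardiac actin, overlapped at 275 and 274 against 293 and 235 FPKM. Of 27 sarcomere and calcium handling genes 1 rose, the atrial peptide Nppa (3.86 and 4.49 to 21.8 and 15.3 FPKM), and of 15 heart transcription factors 0 passed (2 higher and 3 lower in the embryo-only model). In the second E9.0 pool 24 of the 27 cardiac genes were below the first (median -0.26). Wt1, a factor of the epicardium and kidney, rose from 0.367 and 1.18 to 3.90 and 4.96 FPKM, while the nephric gene Pax2 was at 6.89 and 4.76 against 1.99 and 2.39 FPKM and passed as lower in the embryo-only model.

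Of 19 surface epithelium genes 5 fell and 0 rose (12 and 1 in the embryo-only model), and the median change was -0.75. Cldn6, an embryonic tight junction claudin, went from 81.7 and 73.7 to 27.9 and 24.6 FPKM (log2 fold change -1.53 ± 0.15, limma adjusted p = 0.00781). Cldn7, the vesicle transport gene Rab25 and the protease inhibitor Spint1 fell with log2 fold changes of -1.25, -1.03 and -1.34. The epithelial splicing regulator Esrp1 fell from 13.1 and 11.9 to 6.86 and 6.37 FPKM. Trp63, a factor of stratified epithelium, was higher in the embryo-only model, at 1.28 and 1.43 against 3.22 and 2.76 FPKM. Cdh1, E-cadherin, was at 23.6 and 22.4 against 9.28 and 7.91 FPKM and passed in the embryo-only model. Yolk sac endoderm is itself an epithelium and makes several of these transcripts, and how far these falls go with those of the yolk sac genes was not tested. In the second E9.0 pool 18 of these 19 genes were below the first (median -0.17).

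Of 32 glycolysis and hypoxia genes 3 fell and 0 rose (8 and 0 in the embryo-only model), and the median change was -0.32. Slc2a3, a high-affinity glucose transporter, went from 587 and 563 to 166 and 114 FPKM (log2 fold change -2.06 ± 0.29, limma adjusted p = 0.023), and Slc2a1, the widely used transporter, from 553 and 479 to 274 and 219 FPKM (log2 fold change -1.07). Pfkl, a phosphofructokinase, fell from 179 and 171 to 126 and 118 FPKM. Ldha, lactate dehydrogenase, was at 1206 and 1228 against 967 and 845 FPKM and passed in neither model. In the second E9.0 pool 27 of 32 of these genes were below the first (median -0.25). In the respiratory chain 1 of 18 nuclear genes rose, Uqcrfs1 (53.7 and 62.9 to 92.6 and 87.6 FPKM). Among 20 imprinted genes, the growth-restraining Phlda2 fell from 62.4 and 69 to 7.66 and 9.13 FPKM (log2 fold change -2.83 ± 0.25, limma adjusted p = 0.00664) and 0 rose. In the embryo-only model 9 imprinted genes were higher and 3 lower, and the median change was 0.32. Igf2, the embryonic growth factor, was at 407 and 427 against 623 and 577 FPKM and passed in the embryo-only model.

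In the retinoic acid pathway (17 tested) the synthesizing enzyme Aldh1a3, an enzyme of the eye and nasal region, rose from 0.424 and 1.40 to 9.09 and 8.70 FPKM (log2 fold change 2.42), Cyp26a1 fell as given above, and Aldh1a2, the enzyme of the trunk, was at 44.1 and 34.3 against 21.6 and 19.7 FPKM and passed in the embryo-only model. Of 21 FGF pathway genes the receptor Fgfr4 fell (3.39 and 3.29 to 1.01 and 1.10 FPKM), and 2 were higher and 10 lower in the embryo-only model. Of 28 Wnt genes the feedback inhibitor Nkd2 (2.40 and 2.35 to 6.53 and 6.71 FPKM) and the agonist Rspo1 (1.05 and 0.686 to 4.24 and 4.82 FPKM) rose, and 7 were higher and 9 lower in the embryo-only model. None of 14 Hedgehog genes and none of 23 Nodal, BMP and TGF-beta genes passed in the 8-library model, in which 2832 rows had an unadjusted p under 0.05. In the embryo-only model 3 Hedgehog genes were higher and 2 lower, and 4 genes of the TGF-beta group were higher and 4 lower. Shh was at 7.60 and 7.88 against 7.46 and 8.42 FPKM.

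Of 56 cytosolic ribosomal protein genes 0 passed in the 8-library model, and 3 were higher and 2 lower in the embryo-only model, with a median of -0.03. Of 26 cell cycle genes 0 passed (4 and 2), with a median of 0.05, and of 11 DNA methylation genes 0 passed (1 and 2), with a median of -0.02. Among 24 genes of the SMN complex and the U2 particle of the spliceosome 0 passed (1 and 1), with a median of 0.02. Of 61 replication-dependent histone genes, whose transcripts lack a poly(A) tail, 6 rose and 0 fell (19 and 0), and the linker histone Hist1h1b went from 400 and 462 to 933 and 873 FPKM. Of 27 tissue-restricted splicing regulators 2 fell and 0 rose (6 higher and 3 lower in the embryo-only model), with a median of 0.1. The 2 that fell were Esrp1 and the muscle factor Rbm20 (5.57 and 4.23 to 1.99 and 1.86 FPKM). Of the genes that the study names for isoform changes between these stages, Etl4 was at 29 and 29.4 against 15.5 and 15.4 FPKM and Nin at 6.42 and 7.02 against 10.3 and 10.9 FPKM, both passing in the embryo-only model, and Lmna was at 1.89 and 2.69 against 4.06 and 3.13 FPKM and passed in neither.

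Some rows went from under 1 FPKM in both pools of a stage to at least 5 FPKM in both pools of the other. There were 12 of them on at E9.0 and 20 off at E9.0. Those off at E9.0 include Hnf4a, Vil1, which encodes the microvillus protein villin, Soat2, a cholesterol esterifying enzyme, Dpp4, a brush border peptidase, and Slc2a2. Those on at E9.0 include Barx1, Pou3f3 and Col15a1, and also the short precursor rows Mir10a, Mir1197 and Mir717, for which FPKM is unstable because the locus is short. Col15a1 and Mir717 passed only in the embryo-only model. Gm42418, which overlaps ribosomal RNA, was listed at 0 in both E8.0 pools and at 11560 and 7065 FPKM in the E9.0 pools (limma adjusted p = 0.0927), and it makes up nearly all of the ribosomal RNA share given above at E9.0.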

How the data were processed

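Whole wild-type embryos were profiled by RNA sequencing after removal of ribosomal RNA. The authors deposited FPKM per gene. The submitters' processing notes name bcl2fastq 2.18.0.12, STAR 2.5.2b, Cufflinks 2.2.1 and the GRCm38 build, and the study's Cuffdiff test on alignments was not repeated here. Of 45720 rows with a single gene name, 95.7% matched the GENCODE annotation. A row entered the test if 2 or more of the 8 libraries (4 from embryos, the others from EBs) reached 1 FPKM. Some rows, such as Nanog, Eomes and Nodal, were thus tested though under 1 FPKM in all 4 embryo libraries. Testing was done on log2(FPKM + 1) with limma 3.58.1 (trend) in R 4.3.3, two-sided, with Benjamini-Hochberg adjustment over 15160 rows and a threshold of 0.05. The fit was tested on simulated data. Alternatives changed the pseudocount, filter, scaling, libraries, block and moderation.

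The comparison and the gene lists were chosen with earlier results of these data known. Genes named are the 15 highest and 15 lowest fold changes among single-name rows that passed, the first 3 and up to 6 lowest-p members of each list, Strap, Etl4, Nin and Lmna. Some genes that the rule takes are not reported here, and other genes were chosen after their values were seen, as were the motif letters. Promoter windows came from RefSeq (GRCm38.p6).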

Additional observations from a re-analysis of the deposited data

How the results depend on the processing

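The number of calls depended strongly on the fit. With 182 rows higher and 170 lower at E9.0 as reported, 120 were higher with no filter, 94 higher and 113 lower with a filter at 5 FPKM, and 1576 higher and 1290 lower with only the 4 embryo libraries. Rescaling without mitochondrial and ribosomal rows shifted the median of all rows by -0.074 on the log2 scale and gave 169 higher and 275 lower, 170 of the latter shared with the reported rows. Leaving out any of the 4 embryo libraries, with the lone library of that stage assumed to vary like the other groups, gave 8 to 11 rows higher and 9 to 17 lower, and 6 to 11 of the 98 named genes that passed did so still. The other alternatives kept the counts within 1.5 times, and in no alternative did any of the 98 reverse its direction. Of the 98, 64 passed with a pseudocount of 0.1 and 56 with no filter. With the filter at 5 FPKM 55 passed, 11 did not, and the rest were left out by the filter.

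Deviations of same-numbered E8.0 and E9.0 libraries correlated at 0.032 across genes, so the numbers were not taken to pair the embryo pools, whereas those of the WT and KO EB libraries, which help to set the spread, correlated at 0.502. The replicate block gave 139 rows higher and 161 lower with 8 libraries (134 and 137 shared with the reported rows, and 86 of the 98 named genes). With the 4 embryo libraries it gave 242 and 202, against 1576 and 1290 with no block, and shared 97 and 102 with the reported rows and 58 of the 98 genes. An alternative chosen after seeing the data, without rows listed at 0 in an embryo library while at 5 FPKM or more in another, gave 183 higher and 174 lower. The 2 pools per stage and the unknown depth limit all low values.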
